A study of Homo sapiens with 12 samples.

Results

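Amino acid transporter genes were taken as the 44 rows of the deposited gene table whose symbols belong to chosen members of the solute carrier (SLC) families 1, 3, 6, 7, 36, 38 and 43, out of 60591 genes in the table. The rule reads gene symbols alone, and the families in it were chosen with earlier results of these data known. Of the 44, 28 passed the filter on low counts and were tested among 19108 genes. RNA was sequenced from PC9 and H1650, established lung cancer lines that carry the same activating deletion in the receptor EGFR, grown without any transgene or engineered allele and labelled "Wild-type" for genotype. In each line, cells at T0 (0.1% DMSO, collected at the time of drugging, 0 h) were compared with cells held for 36 h in 10 μM erlotinib, a first-generation EGFR inhibitor, or in 0.1 μM osimertinib, a third-generation one, with 2 libraries, called biological replicates by the study, in each of the 6 groups. The study asked whether expression changes could account for the unequal death of these lines under the drugs. Libraries of vehicle-treated cells at 36 h were not analysed here, so every drug effect given also carries 36 h of further culture. The doses of the drugs also differ.

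Amino acids cross membranes largely through carriers. SLC7A5 (LAT1) brings in leucine and other large neutral amino acids in exchange for glutamine. Like the other light chains of family 7 it reaches the cell surface bound to a heavy chain, which for SLC7A5 is SLC3A2 (4F2hc, CD98). SLC7A11 (xCT) uses the same heavy chain to import cystine for glutathione, SLC1A5 (ASCT2) and the SNAT carriers of family 38 load glutamine, and carriers on the lysosome such as SLC38A9 and SLC36A1 report amino acid supply to the kinase complex mTORC1. In cells short of amino acids the factor ATF4 raises several of these genes through C/EBP-ATF composite sites, and NRF2 acts on SLC7A11 through antioxidant response elements. Lung cancers commonly express LAT1 and ASCT2 at high levels.

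Promoter sequences are shown for 6 of the 9 members that were lower with osimertinib than with erlotinib in both lines (values further on), namely those with a match to a searched motif in the stretch shown. Of the other 3, SLC6A9 and SLC43A1 had windows without a match, and SLC7A11 had no window. RefSeq windows of 300 bases around annotated start sites (250 before, 50 after, GRCh38.p14) were held for 33 of the 44 members. They were searched on both strands for the C/EBP-ATF composite site TGATGNAA (reverse TTNCATCA) and for the antioxidant response element core TGACNNNGC (reverse GCNNNGTCA). The composite site was in 6 of 55 member windows and in 5 of the 15 windows of the 9 members (8 of which had a window), against 3.62% of all 35116 windows. The antioxidant core was in 7 of 55 member windows and 4 of 15, against 13.3% of all windows. Windows of the same gene can overlap, several start sites lie inside the GENCODE gene (those shown for SLC1A4, SLC1A5, SLC3A2 and SLC38A1), and the 9 members were chosen from their measured levels, so these shares are a description only. The stretches printed run from 100 bases before to 20 after a start site, 5′ to 3′ on the gene's own strand, capitals mark the motif letters, and positions count the start site as 1 with no 0. SLC1A4 is chr2:64989299-64989418 (plus strand) and holds the composite site from -7 to 1, in reverse. SLC1A5 is chr19:46784795-46784914 (minus strand) with the composite site from -97 to -90. SLC38A1 is chr12:46266497-46266616 (minus strand) with the composite site from -4 to 4. SLC3A2 is chr11:62881599-62881718 (plus strand) with the antioxidant core from -37 to -29, and its composite site, from 38 to 45, lies past the printed end. SLC7A1 is chr13:29595669-29595788 (minus strand) with the antioxidant core from -85 to -77 and the composite site from 8 to 15. SLC7A5 is chr16:87869488-87869607 (minus strand) with the antioxidant core from -2 to 7. No motif of one kind overlapped one of the other kind, and a match of letters does not show that a factor was bound.
SLC1A4: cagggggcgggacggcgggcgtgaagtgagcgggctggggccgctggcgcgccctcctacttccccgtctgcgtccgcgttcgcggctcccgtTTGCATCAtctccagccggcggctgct
SLC1A5: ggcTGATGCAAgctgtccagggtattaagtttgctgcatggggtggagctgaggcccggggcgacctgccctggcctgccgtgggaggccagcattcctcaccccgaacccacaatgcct
SLC38A1: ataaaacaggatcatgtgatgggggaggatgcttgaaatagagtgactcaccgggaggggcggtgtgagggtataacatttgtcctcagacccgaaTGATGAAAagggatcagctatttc
SLC3A2: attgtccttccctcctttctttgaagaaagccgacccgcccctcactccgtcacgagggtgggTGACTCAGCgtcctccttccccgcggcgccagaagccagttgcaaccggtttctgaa
SLC7A1: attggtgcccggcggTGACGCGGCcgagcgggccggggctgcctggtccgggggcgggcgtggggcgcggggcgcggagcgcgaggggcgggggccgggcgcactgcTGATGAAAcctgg
SLC7A5: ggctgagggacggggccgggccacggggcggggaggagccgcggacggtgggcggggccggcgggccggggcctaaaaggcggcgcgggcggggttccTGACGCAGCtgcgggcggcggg

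The libraries held between 17961765 and 26346187 reads counted on genes, and mitochondrial genes took 4.36% to 5.36% of them at T0 and 5.77% to 7.20% in the drug libraries. This share thus moved with every comparison of drug and T0, and its part in them was not tested. The limit for a gene without reads, 3 reads, was 0.116 to 0.168 normalized CPM (counts scaled to library size after TMM scaling) depending on the library, for counting error only. The epithelial markers EPCAM, KRT8, KRT18, KRT19 and CDH1 were at 185 normalized CPM or more in every library. All 10 markers of blood, endothelial and fibroblast cells were at or below 3.96. Their highest counts ran from 1 read for DCN and LUM and 5 for PTPRC to 62 for CDH5 and 83 for CD14.

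Of the 16 members below the filter, SLC7A3 and SLC6A15 had no reads in any library and the highest count of any was 11 reads, for SLC38A3. The others were SLC1A2, SLC1A7, SLC3A1, SLC6A14, SLC7A4, SLC7A10, SLC7A13, SLC7A14, SLC36A2, SLC36A3, SLC38A4, SLC38A8 and SLC38A11. Most of their counts were at or below the limit of 3 reads. SLC38A3 had 1 to 11 reads and SLC38A4 0 to 7, and SLC6A14, a carrier of neutral and cationic amino acids, had 9 and 6 reads in PC9 at T0 and 0 to 3 elsewhere, with no test for any of the 16. SLC3A1, the heavy chain of the cystine carrier of the kidney, was among them, and its light chain SLC7A9 passed the filter with 0 to 22 reads. Among the 28 tested members, 20 had at least 10 reads in every library. The other 8 (SLC1A1, SLC1A3, SLC7A2, SLC7A7, SLC7A8, SLC7A9, SLC38A5 and SLC43A1) passed through groups where they were higher than in others. Their passing the filter thus already favours a difference between groups.

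At T0 the level per length (normalized CPM per kb of counted exon) was led in both lines by SLC7A5, at 454 in PC9 and 199.6 in H1650. In PC9 the next were SLC3A2 at 153, SLC1A5 at 69.1, SLC7A11 at 38.5, SLC38A2 at 35.5, SLC38A1 at 25.6, SLC6A6 at 24.3, SLC7A1 at 22.4 and SLC38A10 at 20.3 per kb. Within that order, the libraries of SLC38A1 and SLC6A6 overlapped, and those of each other pair of neighbours did not. In H1650 the order was SLC1A5 at 75.0, SLC3A2 at 66.9, SLC38A2 at 50.7, SLC38A1 at 38.3, SLC7A1 at 14.7 and SLC38A10 at 14.4 per kb, with overlap between the last pair. SLC7A11 stood at 3.19 per kb in H1650. Lengths are those of all annotated exons joined, so a gene that uses a short isoform is set too low on this scale.

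**Figure D1:**
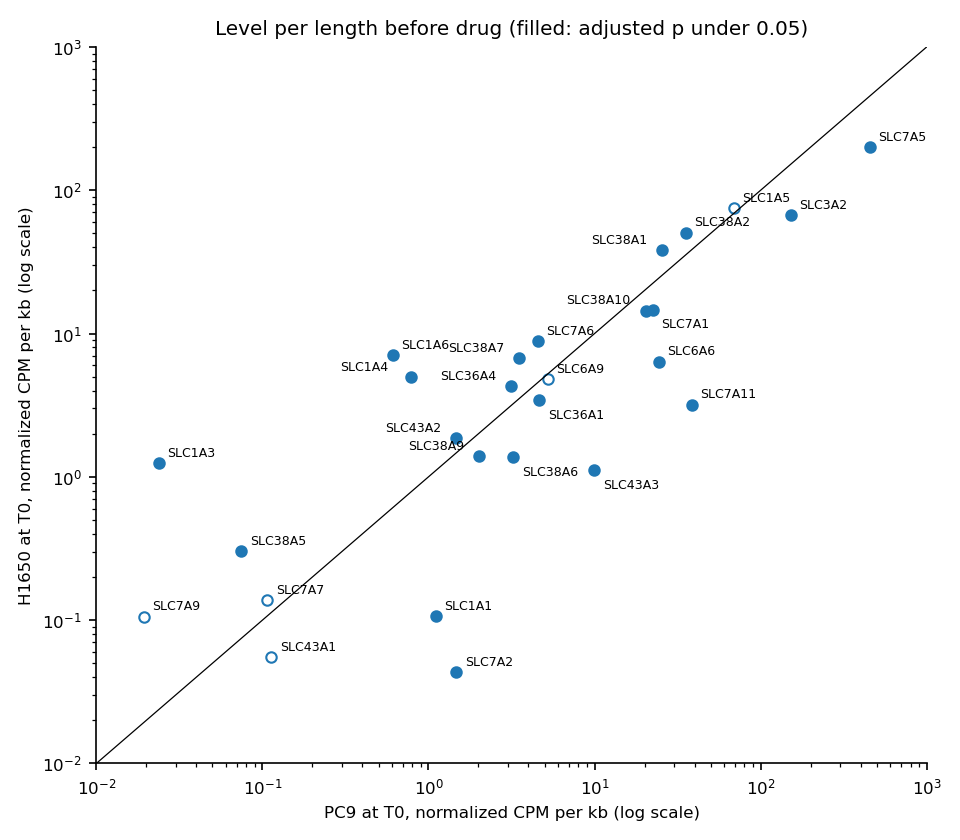
Mean level per length of the tested members at T0 in PC9 (horizontal) and H1650 (vertical), both in normalized CPM per kb on log scales, each the mean of 2 libraries, with the line of equal level. Filled points had an adjusted p under 0.05. SLC7A5 is highest in both lines, SLC7A11 lies far below the line (38.5 in PC9, 3.19 in H1650) and SLC7A8, without reads in H1650, is not drawn.

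Before drug, H1650 and PC9 differed in 23 of the 28 tested members by edgeR's quasi-likelihood test (Benjamini-Hochberg adjusted p under 0.05 over all 19108 genes, the rule for every call that follows). Of these, 10 were higher in H1650, where 35.8% of all tested genes were, and 13 lower, where 33.8% were. SLC7A11 was lower in H1650, at a log2 difference of -3.59 (standard error, SE, 0.0896, adjusted p = 4.14e-23), and its partner SLC3A2 and SLC7A5 were both at a log2 difference of -1.19 (adjusted p = 3.57e-14 and 1.78e-13). Higher levels in H1650 included those of SLC1A4 (2.68, SE 0.124, adjusted p = 5.23e-17) and SLC1A6 (3.53, SE 0.128, adjusted p = 1.78e-19). Differences larger in size, on few reads in the lower line, were 5.65 for SLC1A3 and -5.00 for SLC7A2 (adjusted p = 2.78e-14 and 1.81e-14). The SLC1A3 value was 4.95 without the first and 7.12 without the second PC9 T0 library. The SLC7A2 value was -5.92 without the second H1650 T0 library. SLC7A8, with 13 and 15 reads in PC9 and none in H1650, was at least 5.46-fold higher in PC9, against a floor of 3 reads per library. The glutamine carrier SLC1A5 had a log2 difference of 0.12 (SE 0.0704, adjusted p = 0.136).

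After drug, called members were more often higher than lower with erlotinib. In PC9, erlotinib left 14 members higher and 4 lower than at T0, while 32.7% of all tested genes were higher and 29.1% lower. Osimertinib left 10 higher and 7 lower in PC9 (32.7% and 28.7% of all genes). In H1650, erlotinib left 12 higher and 4 lower (18% and 18.5% of all genes), and osimertinib 11 higher and 10 lower (17.8% and 17.9%). The last count of lower members was 6 without either H1650 osimertinib library. The median log2 fold change of the 28 members was 0.52 and 0.20 in PC9, whereas H1650 had 0.35 and 0.041, for erlotinib and osimertinib in turn, and that of all tested genes 0.074 and 0.064, and 0.0051 and 0. The H1650 medians of the members include the fitted values of SLC7A8, which had no reads in H1650 at T0. In bulk RNA, a change in the share of cells that make an mRNA and a change in each cell cannot be told apart.

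**Figure D2:**
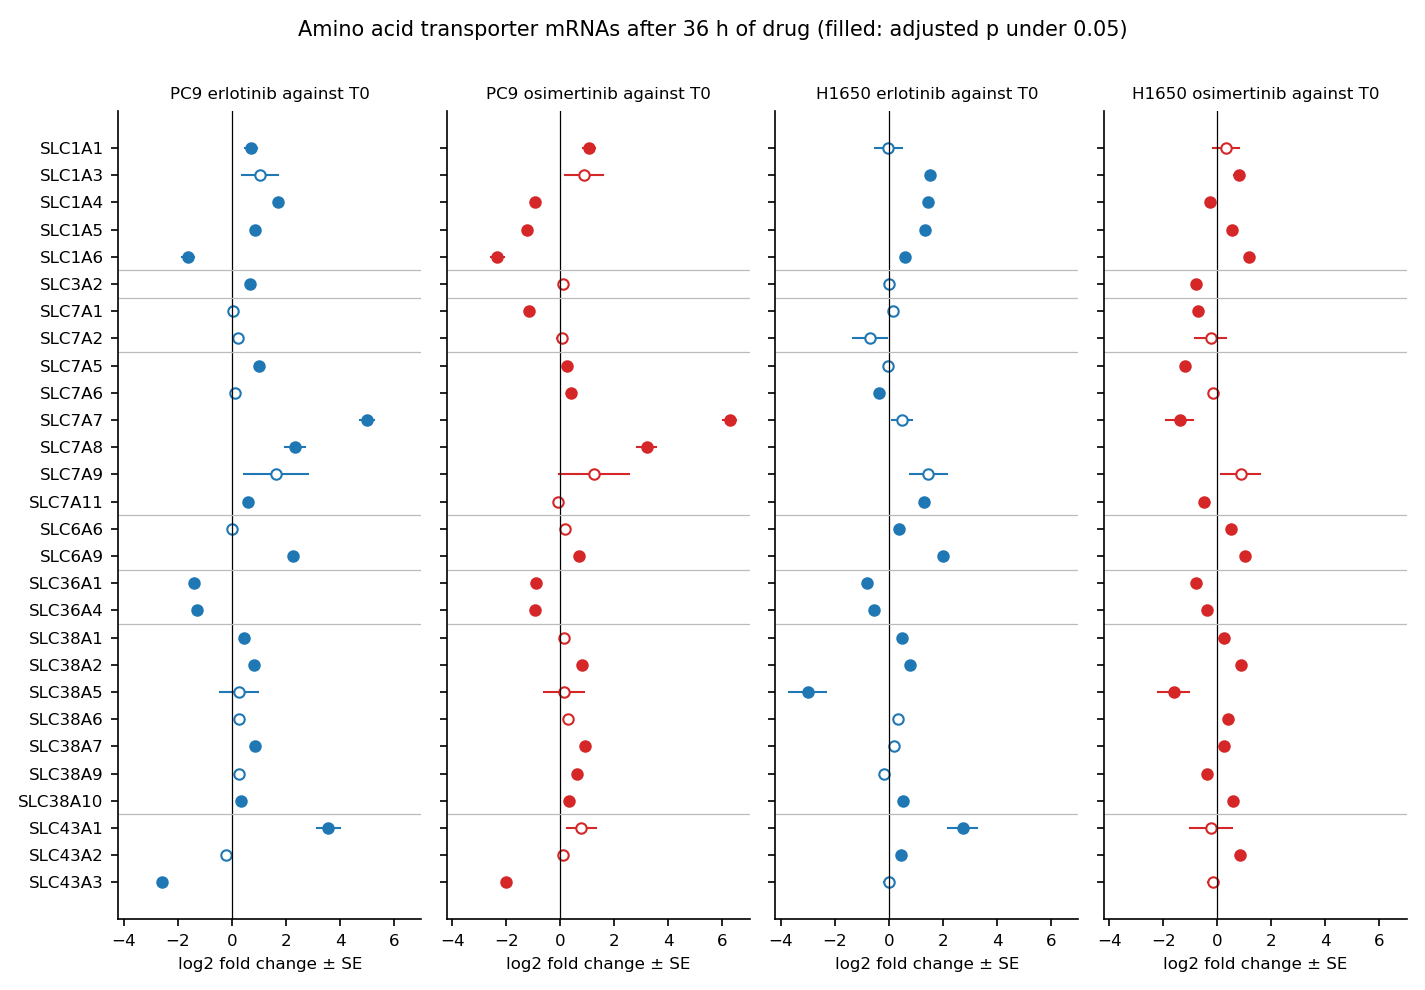
Log2 fold change against T0 (horizontal, with its SE as a bar) of the 28 tested members, ordered by role with grey lines between roles, in the 4 combinations of line and drug. Filled points had an adjusted p under 0.05. Erlotinib gave 14 filled points to the right in PC9 and 12 in H1650, SLC7A7 reached 5.01 and 6.27 in PC9, and SLC7A8, without reads at T0 in H1650, is not drawn there.

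Both drugs moved 5 members the same way in both lines. SLC6A9, SLC38A2 and SLC38A10 were higher in all 4 comparisons (8.47% of all tested genes were), and SLC36A1 and SLC36A4 were lower in all 4 (9.16% of all genes). Counts of 3 and 2 among 28 members are close to those shares, so they do not set the transporters apart from other genes. Each line's drug groups share their T0 libraries, so that the comparisons within a line are not independent.

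Summed over all 44 members, transporter mRNA in PC9 went from 4849 ± 32.5 normalized CPM (SD, n = 2) at T0 to 8275 ± 215 (SD, n = 2) with erlotinib and to 5366 ± 55.8 (SD, n = 2) with osimertinib. In H1650 it went from 2918 ± 114 (SD, n = 2) to 3943 ± 63.1 (SD, n = 2) and 2807 ± 120.4 (SD, n = 2). In H1650 the T0 and osimertinib sums overlapped, while both erlotinib sums were above them. SLC7A5 alone gave 44.6%, 52.1% and 47.6% of the sum in PC9 (T0, erlotinib, osimertinib), and 32.5%, 23.3% and 14.9% in H1650.

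**Figure D3:**
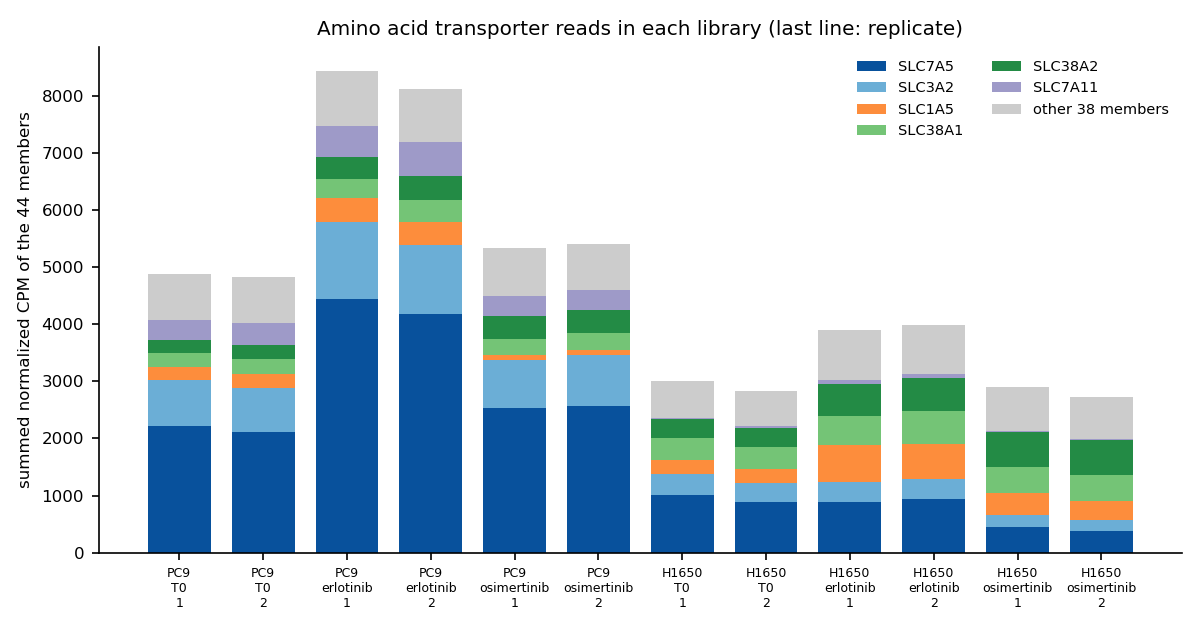
Summed normalized CPM of the 44 members in each of the 12 libraries, with the 6 members of highest level drawn as separate parts of each bar. The PC9 erlotinib bars are highest (mean 8275), and the SLC7A5 part shrinks in H1650 from a mean of 32.5% of the bar at T0 to 14.9% after osimertinib.

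SLC7A5 (chromosome 16, 87830023 to 87869488, minus strand, GRCh38) had the highest mean level per length of all members in each PC9 group and in H1650 at T0 and with erlotinib. In H1650 with erlotinib its libraries overlapped those of SLC1A5 (means 192.9 and 189.9 normalized CPM per kb). With osimertinib in H1650 SLC7A5 stood at a mean of 88.0 normalized CPM per kb, below SLC1A5 at 108.1 and SLC38A2 at 93.5. Its libraries there overlapped those of SLC38A2 but not those of SLC1A5. In PC9 it was at 2211 and 2113 normalized CPM at T0, 4444 and 4182 after erlotinib and 2539 and 2574 after osimertinib. In H1650 it was at 1017 and 884.5 at T0, 893 and 945 after erlotinib and 453.5 and 384.5 after osimertinib. The PC9 groups did not overlap, and in H1650 only the osimertinib libraries stood apart. The log2 fold change in PC9 was 1.00 (SE 0.0785, adjusted p = 8.16e-12 in edgeR) with erlotinib and 0.24 (SE 0.0779, adjusted p = 0.00859) with osimertinib, the latter no longer called without the second PC9 T0 library (0.21, adjusted p = 0.0863). The H1650 value was -0.05 (SE 0.0782, adjusted p = 0.675) with erlotinib and -1.18 (SE 0.0796, adjusted p = 3.48e-12) with osimertinib. The responses of the lines differed for each drug, by -1.05 (SE 0.111, adjusted p = 8.9e-09) and -1.42 (SE 0.111, adjusted p = 1.95e-11), where the difference is the change in H1650 minus that in PC9. Reads of its pseudogene SLC7A5P1 came to at most 0.210% of those of SLC7A5, and an exon of AC126696.2 overlaps it on the opposite strand.

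SLC3A2 (chromosome 11, 62856102 to 62888875, plus strand), the shared heavy chain, had 806 and 777 normalized CPM in PC9 at T0, 1335 and 1203 after erlotinib and 826 and 880.3 after osimertinib. In H1650 it had 359 and 334 at T0, 352 and 343 after erlotinib and 209 and 188 after osimertinib. As for SLC7A5, the PC9 erlotinib libraries were the highest and the H1650 osimertinib libraries the lowest. It rose in PC9 with erlotinib by 0.68 (SE 0.0727, adjusted p = 3.77e-09 in edgeR) and fell in H1650 with osimertinib, by a log2 change of -0.80 (SE 0.0743, adjusted p = 1.61e-09). The PC9 osimertinib change was 0.11 (adjusted p = 0.202) and the H1650 erlotinib change 0.01 (adjusted p = 0.978). The ratio of SLC7A5 to SLC3A2 per length was 2.97 ± 0.0191 (SD, n = 2), 3.70 ± 0.112 (SD, n = 2) and 3.26 ± 0.116 (SD, n = 2) in PC9 at T0, with erlotinib and with osimertinib. The H1650 ratio was 2.98 ± 0.141 (SD, n = 2), 2.87 ± 0.168 (SD, n = 2) and 2.29 ± 0.0963 (SD, n = 2) in the same order.

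SLC7A11 (chromosome 4, 138164097 to 138242349, minus strand), the cystine-glutamate exchanger, was at 357 and 386 normalized CPM in PC9 at T0, 535 and 594 after erlotinib and 354 and 350.1 after osimertinib. The H1650 libraries gave 29.8 and 31.7 at T0, 68.7 and 82.0 after erlotinib and 21.9 and 21.5 after osimertinib. Erlotinib libraries were thus the highest in each line, and every H1650 library was below every PC9 library. With erlotinib it rose by 0.60 in PC9 (SE 0.0775, adjusted p = 1.07e-07 in edgeR) and by 1.29 in H1650 (SE 0.088, adjusted p = 3.6e-12). With osimertinib its log2 fold change was -0.08 in PC9 (SE 0.0776, adjusted p = 0.41), and in H1650 it was -0.50 (SE 0.0952, adjusted p = 0.000111). The lines differed by 0.69 with erlotinib and by -0.43 with osimertinib (adjusted p = 2e-05 and 0.00575). An exon of the antisense gene SLC7A11-AS1 overlaps it, and the reads counted to that gene were at most 0.871% of those of SLC7A11.

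Among the other light chains, SLC7A7 (y+LAT1, chromosome 14, 22773222 to 22829820, minus strand), which exports arginine and lysine in exchange for neutral amino acids, had the largest fold changes among the members, in PC9. There it was at 0.655 and 0.444 normalized CPM at T0, 18.9 and 17.0 after erlotinib and 43.5 and 42.0 after osimertinib. In H1650 it stayed between 0.239 and 1.08 in all 6 libraries. Its log2 fold change in PC9 was 5.01 (SE 0.255, adjusted p = 6.35e-16 in edgeR) with erlotinib and 6.27 (SE 0.241, adjusted p = 9.93e-19) with osimertinib. The H1650 value was 0.48 (adjusted p = 0.343) with erlotinib, or 1.63 (adjusted p = 0.0129) without the second H1650 T0 library, and -1.39 (adjusted p = 0.0291) with osimertinib. The osimertinib value rested on few reads and was -0.24 (adjusted p = 0.858) without the second H1650 T0 library, and it was not called either without the first or the second H1650 osimertinib library (adjusted p = 0.14 and 0.071) or with each line fitted alone (adjusted p = 0.092). The difference between the lines, -4.53 with erlotinib (SE 0.513, adjusted p = 3.04e-08) and -7.66 with osimertinib (SE 0.59, adjusted p = 1.46e-11), was -3.37 and -6.50 without the second H1650 T0 library and still called.

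SLC7A8 (LAT2), a relative of LAT1, was also seen mainly in PC9, at 0.655 and 0.740 normalized CPM at T0, 3.23 and 3.83 after erlotinib and 7.08 and 5.77 after osimertinib. In H1650 it had 1 read in all. Its log2 fold change in PC9 was 2.33 (SE 0.362, adjusted p = 3.65e-06 in edgeR) with erlotinib and 3.19 (SE 0.351, adjusted p = 1.21e-08) with osimertinib. SLC7A6 (y+LAT2) rose in PC9 with osimertinib by 0.40 (adjusted p = 0.0013), a call lost without the first PC9 osimertinib library (0.25, adjusted p = 0.083), and fell in H1650 with erlotinib by 0.35 on the log2 scale (adjusted p = 0.00448), a call lost without the second H1650 T0 library (adjusted p = 0.079). Exons of SLC7A6OS overlap it on the opposite strand, and reads counted to that gene were 11.4% to 20.5% of those of SLC7A6. SLC7A9 passed no test of drug against T0, with adjusted p between 0.0988 and 0.416. Of the 6 tested light chains, SLC7A5 and SLC7A11 included, 4 were higher and none lower in PC9 with either drug, where 32.7% of all tested genes were higher and 29.1% (erlotinib) or 28.7% (osimertinib) lower. In H1650, 1 was higher and 1 lower with erlotinib (18% and 18.5% of all genes), and none was higher and 3 were lower with osimertinib (17.8% and 17.9%).

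The neutral amino acid exchangers of family 1, SLC1A4 and SLC1A5, differed between the drugs in both lines. SLC1A5 (ASCT2, chromosome 19, 46774883 to 46788594, minus strand), a glutamine carrier, was at 228 and 232 normalized CPM in PC9 at T0, 429 and 410.2 after erlotinib and 98.1 and 99.5 after osimertinib. Levels in H1650 were 255 and 245 at T0, 645 and 621 after erlotinib and 381 and 339.5 after osimertinib. No groups overlapped within a line, and the osimertinib libraries lay below T0 in PC9 but above it in H1650. The log2 fold changes with erlotinib were 0.87 in PC9 (SE 0.0704, adjusted p = 1.61e-11 in edgeR) and 1.34 in H1650 (SE 0.0707, adjusted p = 1.85e-14). With osimertinib they were -1.22 in PC9 (SE 0.0729, adjusted p = 1.9e-14) and 0.53 in H1650 (SE 0.0701, adjusted p = 8.18e-07). The difference between the lines was 0.47 (adjusted p = 0.000269) with erlotinib and 1.75 (SE 0.101, adjusted p = 3.86e-14) with osimertinib. An exon of AC008622.2 overlaps SLC1A5 on the opposite strand.

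SLC1A4 (ASCT1, chromosome 2, 64988477 to 65023865, plus strand), which carries serine, alanine and cysteine, was at 5.09 and 5.73 normalized CPM in PC9 at T0, 17.4 and 18.04 after erlotinib and 2.41 and 3.36 after osimertinib. H1650 cells had 36.2 and 33.0 at T0, 94.5 and 96.3 after erlotinib and 29.6 and 27.0 after osimertinib. In both lines the erlotinib libraries were highest and the osimertinib libraries lowest. It rose with erlotinib by 1.71 in PC9 (SE 0.13, adjusted p = 3.83e-12 in edgeR) and 1.46 in H1650 (SE 0.0962, adjusted p = 1.86e-12). The osimertinib change was -0.93 in PC9 (SE 0.176, adjusted p = 4.54e-05), and in H1650 it was -0.29 (SE 0.1, adjusted p = 0.0236). The H1650 value was not called without the first T0 library (-0.22, adjusted p = 0.2) or the second osimertinib library (-0.23, adjusted p = 0.21).

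The glutamate carriers of the family stood at different levels in the lines. SLC1A6 (EAAT4, chromosome 19, 14950034 to 15022990, minus strand, with exons of CCDC105 on the opposite strand) was at 5.29 and 3.998 normalized CPM in PC9 at T0, 1.61 and 1.41 after erlotinib and 0.832 and 1.01 after osimertinib. In H1650 it was at 58.7 and 49.0 at T0, 85.7 and 77.7 after erlotinib and 124 and 119.5 after osimertinib. It thus fell in PC9, with log2 fold changes of -1.62 and -2.34 (adjusted p = 1.03e-07 and 2.14e-09 in edgeR), and rose in H1650, by 0.60 and 1.18 (adjusted p = 9.81e-06 and 9.93e-11), with erlotinib and osimertinib in turn. The difference between the lines was 2.23 (SE 0.227, adjusted p = 4.54e-09) and 3.51 (SE 0.255, adjusted p = 4.3e-12). SLC1A3 (EAAT1) was nearly confined to H1650, at 7.60 and 8.03 normalized CPM at T0, 23.1 and 22.4 after erlotinib and 12.4 and 14.5 after osimertinib, and at 0.392 or less in PC9. It rose in H1650 by 1.54 (adjusted p = 1.46e-08) and 0.78 (adjusted p = 0.000387), and in PC9, on few reads, its values were 1.04 (adjusted p = 0.177) and 0.87 (adjusted p = 0.291). The PC9 erlotinib value was 2.501 (adjusted p = 0.0454) without the second PC9 T0 library. SLC1A1 (EAAT3) showed the opposite pattern, at 4.05 to 9.43 in PC9 and 0.668 or less in H1650. It rose in PC9 with osimertinib by 1.05 (adjusted p = 0.000179) and with erlotinib by 0.70 (adjusted p = 0.00793). The erlotinib call was lost with DESeq2 (adjusted p = 0.059), without the second PC9 T0 library (adjusted p = 0.08) and without the second PC9 erlotinib library (adjusted p = 0.065).

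SLC6A9 (GlyT1, chromosome 1, 43991500 to 44031467, minus strand, with exons of CCDC24 on the opposite strand), the glycine carrier, was at 27.1 and 28.0 normalized CPM in PC9 at T0, 138 and 129 after erlotinib and 42.7 and 45.4 after osimertinib. The H1650 libraries gave 28.1 and 22.3 at T0, 100.5 and 103 after erlotinib and 54.2 and 47.9 after osimertinib. In each line the groups kept the same order without overlap, T0 lowest, osimertinib between and erlotinib highest. The log2 fold change with erlotinib was 2.27 in PC9 (SE 0.0957, adjusted p = 8.72e-18 in edgeR) and 2.02 in H1650 (SE 0.0958, adjusted p = 1.98e-15). With osimertinib it was 0.67 in PC9 (SE 0.0988, adjusted p = 1.01e-06) and 1.02 in H1650 (SE 0.0971, adjusted p = 2.5e-09). SLC6A6 (TauT), the taurine carrier, overlapped by GRIP2 on the opposite strand, rose in H1650, by 0.39 (adjusted p = 0.00034) and 0.50 (adjusted p = 1.54e-05), and in PC9 had values of 0.00 (adjusted p = 1) and 0.16 (adjusted p = 0.0611), the latter called with at least 10 reads in every library (0.21, adjusted p = 0.0127). The lines differed in that response by 0.39 (adjusted p = 0.00558) and 0.33 (adjusted p = 0.0157). The first of these was lost without the first H1650 T0 library (adjusted p = 0.068), and the second without that library or the second PC9 T0 library (adjusted p = 0.15 and 0.055).

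The cationic carrier SLC7A1 (CAT1, chromosome 13, 29509410 to 29595688, minus strand), which imports arginine and lysine, was at 164 and 181 normalized CPM in PC9 at T0, 175 and 182 after erlotinib and 75.5 and 78.9 after osimertinib. Levels in H1650 were 116 and 110.4 at T0, 124 and 129 after erlotinib and 69.7 and 68.0 after osimertinib. The osimertinib libraries stood below all others of their line. With osimertinib the log2 fold change was -1.16 in PC9 (SE 0.0753, adjusted p = 1.23e-13 in edgeR) and -0.71 in H1650 (SE 0.0754, adjusted p = 1.64e-08). With erlotinib the changes were 0.05 (adjusted p = 0.556) and 0.16 (adjusted p = 0.0882), the latter called with at least 10 reads in every library (adjusted p = 0.0307). SLC7A2 (CAT2) was at 9.88 to 14.8 normalized CPM in PC9 and 0.178 to 0.502 in H1650, and passed no test of drug against T0.

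Both tested proton-coupled carriers fell with each drug in each line. SLC36A1 (PAT1, chromosome 5, 151437046 to 151492381, plus strand), found on lysosomes and at the cell surface, was at 32.5 and 32.4 normalized CPM in PC9 at T0, 10.7 and 13.6 after erlotinib and 18.7 and 15.6 after osimertinib. H1650 cells had 24.4 and 23.5 at T0, 14.6 and 13.04 after erlotinib and 14.8 and 13.01 after osimertinib. T0 was highest in both lines, and the drug groups overlapped in H1650. Its log2 fold change was -1.41 and -0.92 in PC9 (adjusted p = 9.8e-11 and 2.4e-07 in edgeR) and -0.80 and -0.79 in H1650 (adjusted p = 1.12e-05 and 1.33e-05), for erlotinib and osimertinib in turn.

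SLC36A4 (PAT4, chromosome 11, 93144171 to 93197964, minus strand) was at 30.8 and 29.9 normalized CPM in PC9 at T0, 11.9 and 12.8 after erlotinib and 15.9 and 15.4 after osimertinib. In H1650 it was at 41.7 and 41.9 at T0, 25.5 and 31.2 after erlotinib and 28.3 and 34.9 after osimertinib. Again the T0 libraries were highest in each line. Its log2 fold change was -1.30 and -0.95 in PC9 (adjusted p = 1.76e-10 and 5.24e-08 in edgeR) and -0.56 and -0.40 in H1650 (adjusted p = 0.000152 and 0.00367), and the H1650 osimertinib call was lost without the first osimertinib library (-0.26, adjusted p = 0.14). The fall was smaller in H1650, by 0.74 (adjusted p = 0.00045) with erlotinib and by 0.55 (adjusted p = 0.00609) with osimertinib. The osimertinib difference was lost without the second H1650 osimertinib library (0.41, adjusted p = 0.067).

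Of the 7 tested sodium-coupled neutral carriers of family 38, 4 were higher and none lower in PC9 with either drug (all tested genes: 32.7% higher with each, 29.1% and 28.7% lower). In H1650, 3 were higher and 1 lower with erlotinib (all genes: 18% and 18.5%) and 5 higher and 2 lower with osimertinib (17.8% and 17.9%). The H1650 osimertinib calls of SLC38A1, SLC38A5, SLC38A6, SLC38A7 and SLC38A9 were each lost on leaving out single libraries, as given below. SLC38A2 (SNAT2, chromosome 12, 46358189 to 46372867, minus strand), known to be raised when cells lack amino acids, was at 226 and 235 normalized CPM in PC9 at T0, 397 and 425 after erlotinib and 400.1 and 401 after osimertinib. The H1650 libraries gave 325 and 335 at T0, 558 and 579 after erlotinib and 599.9 and 617.5 after osimertinib. All drug libraries lay above all T0 libraries of their line. The 4 log2 fold changes were close, 0.83 and 0.80 in PC9 and 0.79 and 0.88 in H1650 (SE 0.0671 to 0.0677, adjusted p = 3.21e-10 or smaller in edgeR). The difference between the lines was -0.05 (SE 0.0947, adjusted p = 0.749) with erlotinib and 0.09 (SE 0.0948, adjusted p = 0.499) with osimertinib.

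SLC38A1 (SNAT1, chromosome 12, 46183063 to 46270017, minus strand), the near neighbour of SLC38A2, was at 243 and 270.2 normalized CPM in PC9 at T0, 323 and 373 after erlotinib and 274 and 292 after osimertinib. Levels in H1650 were 377 and 389 at T0, 509 and 565 after erlotinib and 463 and 440.1 after osimertinib. The groups did not overlap within a line, with osimertinib between T0 and erlotinib. It rose with erlotinib by 0.44 in PC9 and 0.49 in H1650 (adjusted p = 1.99e-05 and 1.27e-05 in edgeR). With osimertinib the values were 0.14 in PC9 (adjusted p = 0.125) and 0.24 in H1650 (adjusted p = 0.0181), the latter not called without the first H1650 T0 library or the first H1650 osimertinib library (adjusted p = 0.11 and 0.13). The PC9 value was called with at least 10 reads in every library (0.19, adjusted p = 0.0325).

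SLC38A10 (chromosome 17, 81245000 to 81295547, minus strand, with an exon of AC027601.4 on the opposite strand) was at 166 and 155 normalized CPM in PC9 at T0, 219.7 and 184 after erlotinib and 217 and 186 after osimertinib. H1650 cells had 120.1 and 108 at T0, 177 and 149.8 after erlotinib and 181 and 158 after osimertinib. In each group the first replicate was the higher one. Its log2 fold change was 0.33 with each drug in PC9 (adjusted p = 0.00362 and 0.00378 in edgeR) and 0.52 and 0.57 in H1650 (adjusted p = 9.06e-05 and 2.56e-05). The PC9 calls were lost without the second T0 library (0.28, adjusted p = 0.053 for each drug), the erlotinib call without the first erlotinib library (0.20, adjusted p = 0.11), and the osimertinib call without the first osimertinib library (0.21, adjusted p = 0.12).

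Of the other SNAT genes, SLC38A7, a lysosomal glutamine carrier, rose in PC9 from 23.3 and 23.6 normalized CPM to between 42.3 and 45.8 with the drugs, by 0.86 and 0.91 (adjusted p = 1.78e-09 and 7.48e-10 in edgeR). In H1650 its changes were 0.20 (adjusted p = 0.0633) and 0.25 (adjusted p = 0.0199), smaller than in PC9 by 0.66 on the log2 scale for each drug (adjusted p = 5.67e-05 and 6.05e-05). The erlotinib change in H1650 was called with at least 10 reads in every library (adjusted p = 0.0229). The H1650 osimertinib call was lost with DESeq2 (adjusted p = 0.053), with no filter (adjusted p = 0.071), and without the first H1650 T0 or the first H1650 osimertinib library (adjusted p = 0.16 each). SLC38A9, the lysosomal arginine sensor of mTORC1, rose with osimertinib in PC9 from 17.9 in both T0 libraries to 26.04 and 28.3 (log2 fold change 0.60, adjusted p = 5.24e-05). In H1650 its change was -0.38 (adjusted p = 0.021), not called without the second T0, the first osimertinib or the second osimertinib library (adjusted p = 0.17, 0.12 and 0.062). The difference between the lines was -0.98 (SE 0.173, adjusted p = 3.11e-05). SLC38A6 (overlapped by AL160236.2 on the same strand and TRMT5 on the opposite strand), at 6.37 to 21.0 normalized CPM, was called in H1650 with osimertinib (0.38, adjusted p = 0.038), a call that DESeq2, the fit without a filter and the fit of each line alone did not give (adjusted p = 0.11, 0.1 and 0.065), nor the fits without the second H1650 T0 library or either H1650 osimertinib library (adjusted p = 0.36, 0.15 and 0.095). Its other 3 drug changes were called when the test kept only genes with at least 10 reads in every library (adjusted p = 0.0231 and 0.0198 in PC9, 0.0498 in H1650). SLC38A5 never passed 1.35 normalized CPM. It fell in H1650 with erlotinib, with a log2 fold change of -3.01 (SE 0.689, adjusted p = 0.000936 in edgeR), which was -2.35 without the first and -4.42 without the second erlotinib library. Its H1650 osimertinib value of -1.61 (adjusted p = 0.0296) was not called with DESeq2 or without any 1 of the 4 libraries compared (adjusted p = 0.053 to 0.26).

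Family 43 held a large change in each direction. SLC43A3 (chromosome 11, 57406954 to 57427580, minus strand, with an exon of AP000781.2 on the same strand), known as a carrier of purine nucleobases rather than amino acids, was at 46.2 and 43.9 normalized CPM in PC9 at T0, 7.88 and 7.30 after erlotinib and 10.5 and 11.7 after osimertinib. In H1650 it lay between 4.19 and 5.63 in all 6 libraries. It fell in PC9, with log2 fold changes of -2.57 for erlotinib (SE 0.134, adjusted p = 9.94e-16 in edgeR) and -2.03 for osimertinib (SE 0.13, adjusted p = 9.73e-14). The H1650 values were -0.01 (adjusted p = 0.999) and -0.17 (adjusted p = 0.471), and the lines differed by 2.56 (adjusted p = 9.82e-11) and 1.85 (adjusted p = 4.24e-08).

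SLC43A1 (LAT3, chromosome 11, 57484534 to 57515786, minus strand), a carrier of branched-chain amino acids without a heavy chain, was at 0.403 and 0.395 normalized CPM in PC9 at T0, 4.84 and 4.72 after erlotinib and 0.647 and 0.729 after osimertinib. In H1650 it was at 0.233 and 0.154 at T0, 1.55 and 1.07 after erlotinib and 0.0477 and 0.267 after osimertinib. Only the erlotinib libraries were above 1 normalized CPM. The log2 fold change with erlotinib was 3.56 in PC9 (SE 0.421, adjusted p = 2.49e-08 in edgeR) and 2.74 in H1650 (SE 0.532, adjusted p = 0.000155). SLC43A2 (LAT4) rose in H1650 by 0.43 (adjusted p = 0.0114) and 0.83 (adjusted p = 1.07e-05) while its PC9 values were -0.20 (adjusted p = 0.226) and 0.11 (adjusted p = 0.523). The erlotinib call in H1650 was lost with DESeq2 (adjusted p = 0.05), without the second H1650 T0 library (adjusted p = 0.14) and without the second erlotinib library (adjusted p = 0.074).

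**Figure D4:**
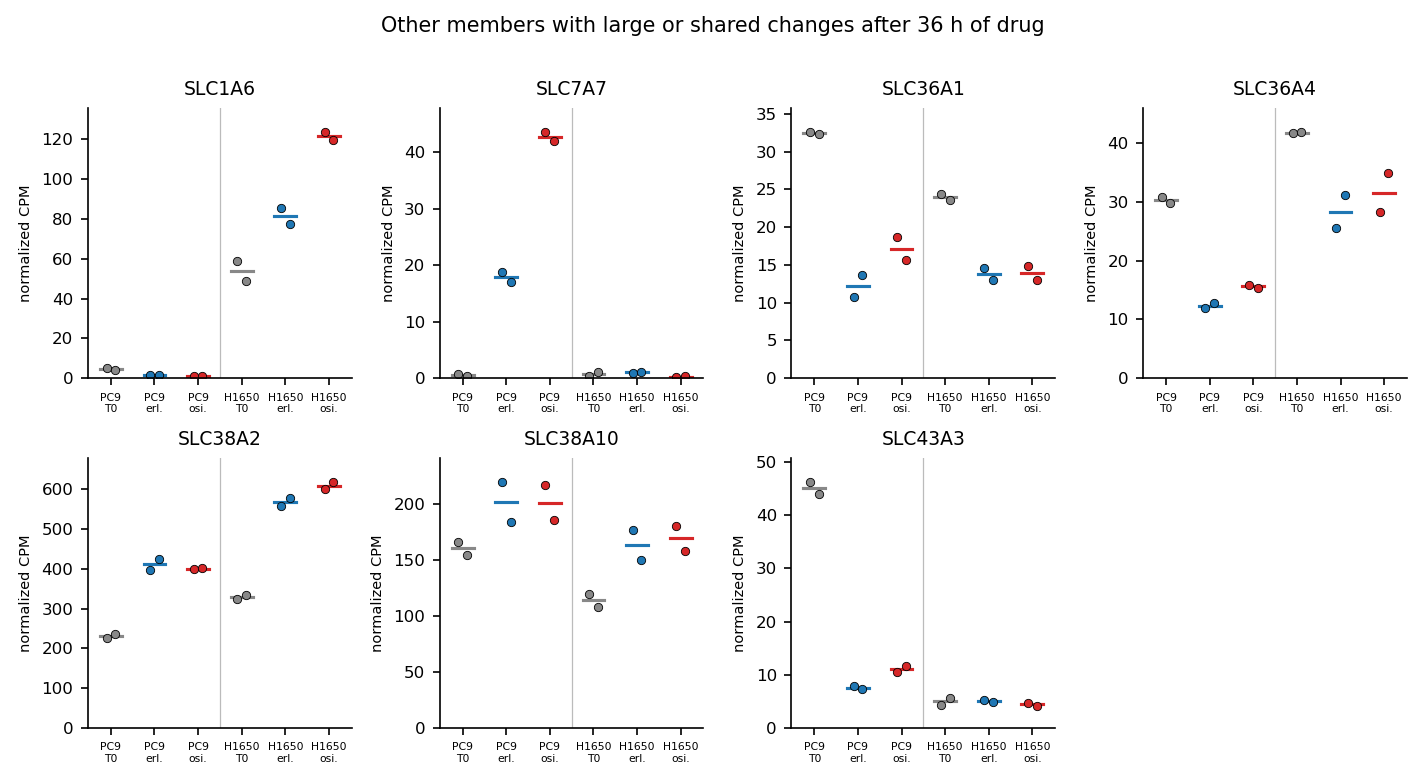
Normalized CPM (vertical, linear from 0) of 7 members in each library (points) with group means (bars), T0 in grey, erlotinib in blue and osimertinib in red, PC9 left and H1650 right of the line. SLC7A7 rises and SLC43A3 falls in PC9, SLC1A6 falls in PC9 and rises in H1650, and SLC36A1, SLC36A4, SLC38A2 and SLC38A10 move the same way in both lines.

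Set directly against each other, the drugs differed in the same direction in both lines for SLC1A4, SLC1A5, SLC3A2, SLC6A9, SLC7A1, SLC7A5, SLC7A11, SLC38A1 and SLC43A1. These 9 members were lower with 0.1 μM osimertinib than with 10 μM erlotinib in PC9 and in H1650, where 1.52% of all tested genes were lower in both. In PC9 they were all of the lower members, beside 5 higher ones (6.41% and 10.1% of all genes). In H1650 11 members were lower and 1 was higher (3.73% and 5.02% of all genes), the other lower ones being SLC1A3 (-0.75, adjusted p = 0.00153 in edgeR) and SLC7A7 (-1.87, adjusted p = 0.0105). The SLC1A3 call was lost without the first H1650 osimertinib library (adjusted p = 0.056), and the SLC7A7 call without that library (adjusted p = 0.1) or the second H1650 erlotinib library (adjusted p = 0.063), and with each line fitted alone (adjusted p = 0.06). The 5 higher in PC9 were SLC7A7, SLC7A8, SLC36A1, SLC38A9 and SLC43A3, and this count was 2 without the first PC9 erlotinib library and 3 without each of the other PC9 drug libraries. The 1 higher in H1650 was SLC1A6, by 0.57 (SE 0.0924, adjusted p = 9.44e-05 in edgeR). A count of 2 was found on leaving out either PC9 erlotinib, PC9 osimertinib or H1650 T0 library or the second H1650 osimertinib library, when SLC43A2 was also called.

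The size of this drug difference varied among the 9 members. In PC9 it was -2.64 for SLC1A4 (SE 0.147, adjusted p = 1.15e-13 in edgeR), -2.09 for SLC1A5 (SE 0.0738, adjusted p = 4.82e-18), -1.60 for SLC6A9 and -1.21 for SLC7A1 (adjusted p = 2.34e-13 and 1.3e-12). In H1650 it was -1.80 for SLC7A11 (SE 0.0918, adjusted p = 1.09e-13), -1.76 for SLC1A4 (SE 0.0983, adjusted p = 6.32e-13) and -1.13 for SLC7A5 (SE 0.0795, adjusted p = 5.47e-11). SLC7A11 and SLC7A5 had -0.68 and -0.75 in PC9, and SLC1A5, SLC6A9 and SLC7A1 had -0.81, -0.99 and -0.88 in H1650. SLC3A2 was at -0.57 in PC9 and -0.81 in H1650 (adjusted p = 1.26e-06 and 9.57e-09). For SLC43A1, with few reads, the values were -2.79 and -2.97 (adjusted p = 5.04e-06 and 0.000613), the latter -2.26 without the first and -4.61 without the second H1650 osimertinib library. SLC38A1 had the smallest difference, -0.30 in PC9 (adjusted p = 0.00769) and -0.25 in H1650 (adjusted p = 0.0418). The PC9 call was lost without the second erlotinib or the first osimertinib library (adjusted p = 0.19 and 0.092). The H1650 call was lost with RLE normalization (adjusted p = 0.06), without either PC9 T0 library (adjusted p = 0.052 each), and without the second erlotinib, the first osimertinib or the second osimertinib library of H1650 (adjusted p = 0.38, 0.12 and 0.25).

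**Figure D5:**
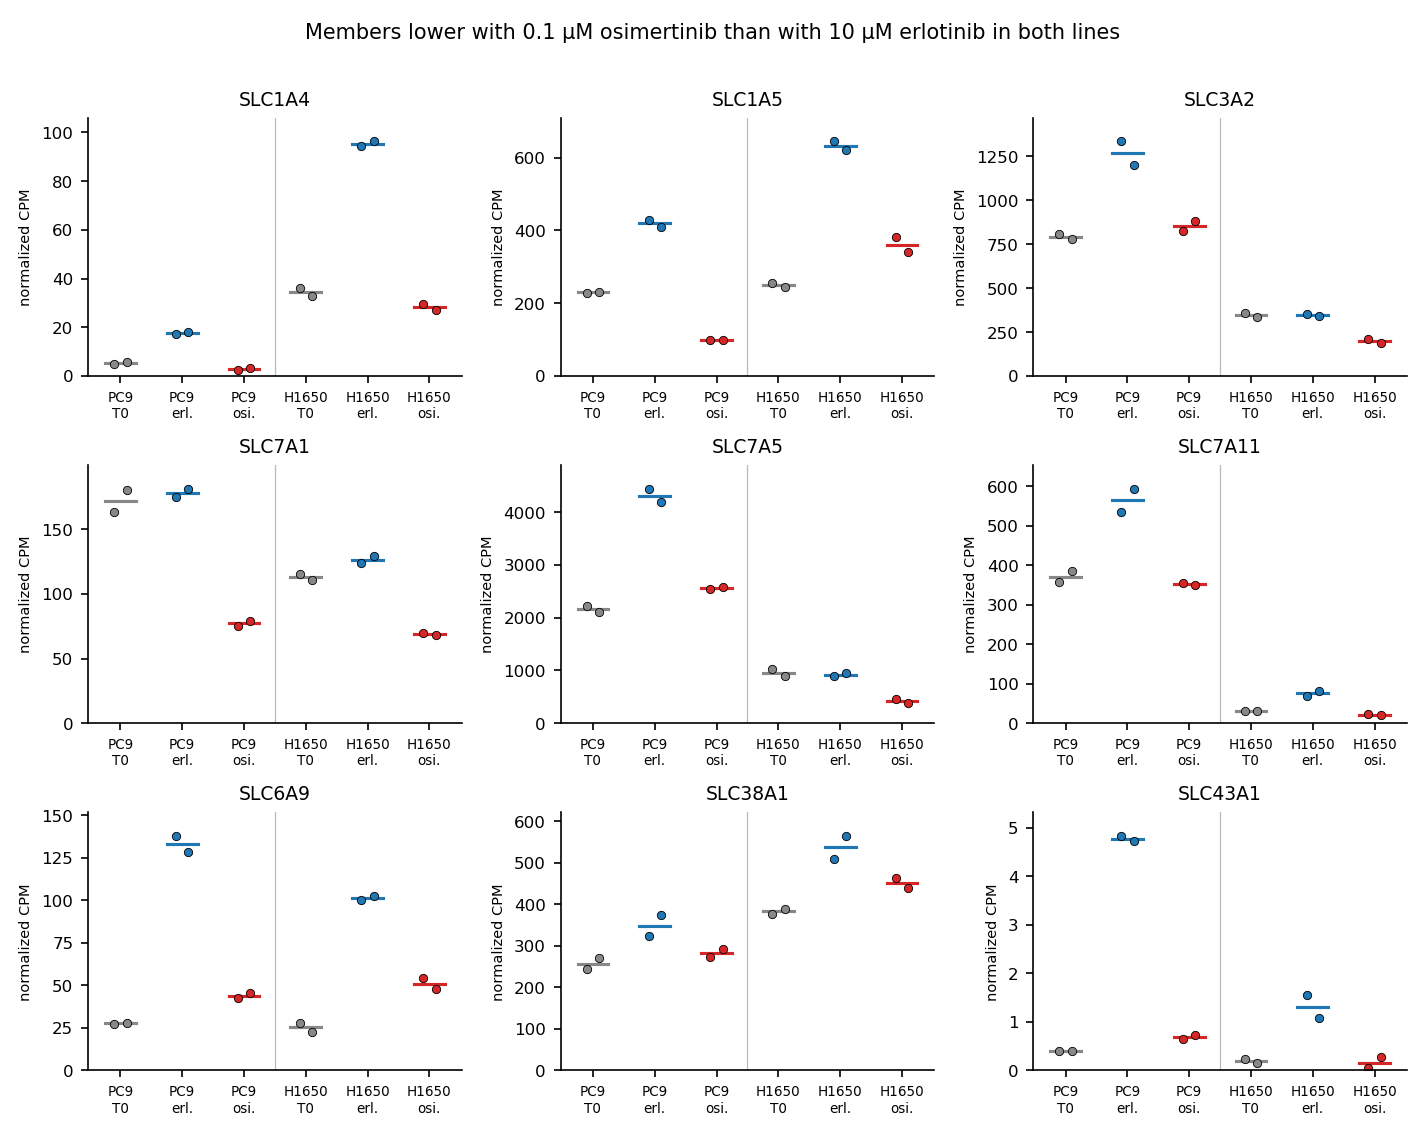
Normalized CPM (vertical, linear from 0) of the 9 members lower with osimertinib than with erlotinib in both lines, each library as a point and each group mean as a bar, T0 in grey, erlotinib in blue and osimertinib in red. Osimertinib points lie below erlotinib points of the same line in every panel, while their place against T0 differs, as for SLC1A5, below T0 in PC9 and above it in H1650.

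The drug-by-line test, which sets the H1650 change against the PC9 change, called 8 members as higher in H1650 and 6 as lower for erlotinib (21.1% and 19.8% of all tested genes), and 9 and 7 for osimertinib (21.5% and 20.5% of all genes). The median of the 28 members was -0.10 and -0.0011, beside -0.032 and -0.026 over all genes. For SLC7A8 the difference could not be estimated, since H1650 had no reads at T0, although its fitted value is among the 28 in these medians. For SLC38A1 and SLC38A2 no difference was called under either drug.

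The genes of the amino acid response, the ATF4 pathway that senses uncharged tRNA and other stresses, were read as a list of 10, all tested. With erlotinib 8 were higher and 1 lower in PC9, and 8 higher and 2 lower in H1650, with median log2 fold changes of 1.44 and 0.96. Of all tested genes, 32.7% were higher and 29.1% lower in PC9, and 18% and 18.5% in H1650, with medians of 0.074 and 0.0051. With osimertinib 3 were higher and 5 lower in PC9, and 3 higher and 2 lower in H1650, with medians of -0.38 and 0.0084 (all genes: 32.7% and 28.7% in PC9, 17.8% and 17.9% in H1650, medians 0.064 and 0). Between the drugs, 9 of the 10 were lower with osimertinib in PC9 and 8 in H1650 (medians -1.49 and -0.84), where 6.41% and 3.73% of all genes were, and none was higher. ATF4 itself was at 296 ± 11.6 normalized CPM (SD, n = 2) in PC9 at T0, 771 ± 10.4 (SD, n = 2) with erlotinib and 335 ± 13.9 (SD, n = 2) with osimertinib, and at 207 ± 0.706 (SD, n = 2), 426 ± 5.27 (SD, n = 2) and 286 ± 1.82 (SD, n = 2) in H1650. Its difference between the drugs was -1.20 in PC9 and -0.58 in H1650 (adjusted p = 1.15e-13 and 5.14e-07 in edgeR). TRIB3, a pseudokinase made in response to ATF4, had drug differences of -2.63 and -1.60 (adjusted p = 4.82e-18 and 1.92e-13), and CEBPB, a C/EBP factor, of -0.53 and -0.52 (adjusted p = 0.00502 and 0.00902). The transporter lists and this list were chosen with earlier results of these data known, so their like direction is a description.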

How the data were processed

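PolyA RNA of 12 libraries (6 groups of 2) was analysed. The authors deposited 1 table of raw read counts per gene, made with featureCounts in the DolphinNext pipeline, beside each gene's exon length in bases. The submitters' processing notes name GRCh38 and DESeq2, and the aligner, the annotation and the use of strand are not given in the sources used here. Without strand, reads of genes that overlap on opposite strands cannot be told apart.

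From the deposited counts, 60591 genes were filtered with filterByExpr, which left 19108, scaled by TMM and fitted as 6 groups in one edgeR 4.0.16 quasi-likelihood model (R 4.3.3, limma 3.58.1; 6 residual degrees of freedom; common biological coefficient of variation 0.0656), with Benjamini-Hochberg adjustment over all tested genes and a threshold of 0.05. Normalized CPM are counts scaled to the TMM-adjusted library size. Libraries held 17961765 to 26346187 reads. Replicates of every group differed by more than sampling noise (chi-square per degree of freedom 4.03 to 7.16). The study calls the replicates biological and the labels do not say that they were separate cultures, so p-values measure the spread between these samples.

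Full statistics were given for members called in at least 1 of the 4 drug comparisons with T0 with a log2 change of at least 1 and a mean of at least 10 normalized CPM, called in the same direction in all 4, or called in the same direction between the drugs in both lines, and for SLC3A2. Other members were given by range and count, or named with values chosen after they were seen. Genes of 3 other lists were limited to the 3 of highest level in each, of which 1 is not reported here. Members and lists were chosen with earlier results of these data known. Alternatives were DESeq2 1.42.0, RLE factors, no filter, at least 10 counts in every library, one fit per line, a replicate block, and leaving out each library. The fits were tested on simulated data. Positions are from GENCODE 29 (GRCh38), and promoters from RefSeq (GRCh38.p14).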

Additional observations from a re-analysis of the deposited data

Results flagged for a closer look

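The drug response of 14 tested members with erlotinib and of 16 with osimertinib differed between the lines by edgeR's test of the difference itself (H1650 change minus PC9 change, log2 scale, adjusted p under 0.05). Such differences were common among all tested genes, of which 21.1% were higher and 19.8% lower in H1650 with erlotinib. The shares with osimertinib were 21.5% and 20.5%. With erlotinib, the change was higher in H1650 for SLC43A3 (2.56), SLC1A6 (2.23), SLC36A4 (0.74), SLC7A11 (0.69), SLC43A2 (0.64), SLC36A1 (0.61), SLC1A5 (0.47) and SLC6A6 (0.39). It was lower in H1650 for SLC7A7 (-4.53), SLC38A5 (-3.26), SLC7A5 (-1.05), SLC3A2 (-0.68), SLC38A7 (-0.66) and SLC7A6 (-0.48). With osimertinib, it was higher in H1650 for SLC1A6 (3.51), SLC43A3 (1.85), SLC1A5 (1.75), SLC43A2 (0.72), SLC1A4 (0.63), SLC36A4 (0.55), SLC7A1 (0.44), SLC6A9 (0.35) and SLC6A6 (0.33). It was lower for SLC7A7 (-7.66), SLC7A5 (-1.42), SLC38A9 (-0.98), SLC3A2 (-0.91), SLC38A7 (-0.66), SLC7A6 (-0.55) and SLC7A11 (-0.43).

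For SLC7A11 the difference had opposite signs with the drugs. Its change in H1650 was the larger rise with erlotinib and a fall with osimertinib. For SLC1A5 the osimertinib change was a fall in PC9 and a rise in H1650.

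Some of these differences rested on single libraries. With erlotinib, SLC36A1 was not called without the first PC9 erlotinib library (0.46, adjusted p = 0.056) and SLC43A2 not without the second H1650 T0 library (0.53, adjusted p = 0.051). SLC38A5 was not called without the first H1650 erlotinib, the second PC9 T0 or the first PC9 erlotinib library (adjusted p = 0.07, 0.053 and 0.099). With osimertinib, SLC1A4 was not called without the second PC9 T0 library or the first PC9 osimertinib library (adjusted p = 0.078 and 0.21), and SLC6A9 was not called under 8 of the alternatives (adjusted p = 0.05 to 0.35 in edgeR, 0.087 in DESeq2). The differences of SLC6A6 with each drug and of SLC36A4 with osimertinib were also lost without single libraries, as given in the Results. Groups of 2 libraries are too small for a test of single libraries that stand apart.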

How the results depend on the processing

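No called change of a member turned its direction under the alternatives run. The number of members higher with osimertinib than with erlotinib in PC9, 5, became 3 with DESeq2, 3 with at least 10 counts in every library (20 members tested) and 2 to 6 on leaving out 1 library. That in H1650, 1, became 2 with RLE factors, with no filter and with one fit per line, and 1 to 2 on leaving out 1 library. The number lower in H1650 with osimertinib than at T0, 10, was 6 to 10 on leaving out 1 library. Leaving out a drug library leaves an arm of 1, assumed to vary like the other groups, and the cause of these changes was not tested. Every other count of members stayed within 1.5 times its value. Among single members, DESeq2 lost 9 calls, no filter 4, one fit per line 3, RLE factors 2, and the filter of at least 10 counts lost 1 and added 9, while leaving out 1 library lost 72 calls over 12 fits.

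The replicate numbers were shared by all groups, and same-numbered libraries deviated together in part (correlation of deviations 0.00857 to 0.486 over 15 pairs of groups, above 0.1 in 13 of them, 9699 genes). This is a hint from the data that a number marks something shared, which no label states. With the number as a replicate block, the PC9 count of 5 became 8 and the H1650 count of 1 became 2. The block lost no member call and added 12, among them the PC9 osimertinib changes of SLC6A6 (adjusted p = 0.0165), SLC38A1 (0.0402) and SLC38A6 (0.0444), the PC9 erlotinib change of SLC38A6 (0.0498) and the H1650 erlotinib changes of SLC38A7 (0.0387) and SLC7A1 (0.031).

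The limits are the small groups, the want of a vehicle library at 36 h and the low depth of 8 members with fewer than 10 reads in some libraries.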

Other observations

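Of 21 other amino acid carriers, mostly mitochondrial or lysosomal, 15 were tested. In PC9, 5 were higher and 9 lower with erlotinib (median log2 fold change -0.40), and 6 higher and 9 lower with osimertinib (median -0.40), beside 32.7% of all tested genes higher with each drug, 29.1% and 28.7% lower, and medians of 0.074 and 0.064. In H1650, 3 were higher and 3 lower with each drug (medians 0.0078 and -0.11), beside 18% and 17.8% of all genes higher, 18.5% and 17.9% lower, and medians of 0.0051 and 0. SLC25A13 (citrin), a mitochondrial aspartate-glutamate carrier, fell in all 4 comparisons, by 0.94 and 0.64 on the log2 scale in PC9 and by 0.83 and 0.71 in H1650 (edgeR, adjusted p = 7.3e-08 or smaller). Its relative SLC25A12 (aralar) fell in PC9 by 0.60 and 0.95 and rose in H1650 by 0.44 and 0.34 (adjusted p = 0.0032 or smaller). MFSD12, a lysosomal cysteine carrier, rose in PC9 by 0.23 and 0.38 and fell in H1650 by 0.51 and 0.59 (adjusted p = 0.026 or smaller).

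Of 8 enzymes of glutamine and glutathione, 7 were tested, with 3 higher and 3 lower for erlotinib and 1 and 2 for osimertinib in PC9, and 4 and 2, then 2 and 1, for the same drugs in H1650, against the same all-gene shares. GLUL, glutamine synthetase, was at 92.2 ± 1.76 normalized CPM (SD, n = 2) in PC9 at T0, 563 ± 30.6 (SD, n = 2) with erlotinib and 723 ± 21.2 (SD, n = 2) with osimertinib. In H1650 it was at 235 ± 2.80 (SD, n = 2), 354 ± 5.99 (SD, n = 2) and 548 ± 3.55 (SD, n = 2). It rose by 2.61 and 2.97 in PC9, and by 0.59 and 1.22 in H1650 (edgeR, adjusted p = 6.26e-08 or smaller). GCLM, a subunit of the enzyme that starts glutathione synthesis, rose in PC9 with erlotinib by 0.51 (adjusted p = 2.5e-07) and fell in H1650 by 0.42 and 0.62 (adjusted p = 3.31e-05 and 1.02e-07), with 0.06 (adjusted p = 0.439) in PC9 with osimertinib.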
